A study of Mus musculus with 12 samples.

Results

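The 10 genes described here encode enzymes that build and modify fatty acids: Acly and Acss2, which supply acetyl-CoA, Acaca and Fasn, which make the saturated chain, the desaturases Scd1, Scd2, Fads1 and Fads2, and the elongases Elovl5 and Elovl6. They were chosen by name, as the Entrez identifiers that map to these symbols, and make up 10 of the 27179 genes in the count table. All 10 passed the filter on low counts and were among the 14136 genes tested. RNA came from cultured mouse embryonic fibroblasts, the connective-tissue cells that grow out of dissociated embryos, here wild type C57BL/6 embryos of stage E13.5, grown in DMEM with 10% serum under 3% oxygen. The cells carried no stated allele or transgene. They received either 10 µM WM-8014, an inhibitor of the MYST family of histone acetyltransferases, or 10 µM WM-2474, its inactive control compound, and were collected after 96 or 240 h. Each of the 4 groups has 3 libraries, from cultures numbered 5, 6 and 7, and the series 12. The labels do not say whether a culture stands for 1 embryo or for several pooled, and the groups used here hold no untreated or vehicle-only cells, so each compound effect is WM-8014 measured against WM-2474.

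Cells make fatty acids in the cytosol from acetyl-CoA, which ATP citrate lyase (Acly) cleaves from citrate and acyl-CoA synthetase Acss2 makes from acetate. Acetyl-CoA carboxylase (Acaca) turns it into malonyl-CoA in the committed step, fatty acid synthase (Fasn) assembles palmitate, stearoyl-CoA desaturases (Scd1, Scd2) make monounsaturated chains, and Fads1, Fads2 and Elovl5 work on the polyunsaturated fatty acids taken in from outside. Many of these genes are targets of the sterol regulatory element-binding proteins (SREBPs), which the escort protein Scap carries out of the endoplasmic reticulum and Insig1 holds back, and acetyl-CoA is also the donor that histone acetyltransferases use.

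Library totals ran from 10147466 reads in WM-2474 96 h culture 5 to 45903190 in WM-2474 96 h culture 7, and the 10 genes together held 0.256 to 0.770% of a library's reads. The rarest of them, Acss2, had 1205 reads summed over the 3 WM-8014 240 h libraries. All libraries are labelled female, yet all 12 held Y-linked Ddx3y at 96.3 to 124 CPM (read counts relative to the library total, scaled by the TMM method) and Xist at 0 to 4 reads, so that label goes against the data. All 11 fibroblast markers were tested, with a summed level of 24651 to 29777 CPM over the 96 h libraries and 39417 to 41705 over the 240 h libraries. Col1a1 (10746 to 20023 CPM) and Col1a2 (5713 to 9668) made up most of that sum. Over time 6 passed as higher under WM-2474 and 8 under WM-8014, and 1, Pdgfra, as lower under both, beside 38.9% and 49.7% of all genes in either direction. With WM-8014 2 were higher and 1 lower at 96 h. At 240 h 2 were higher and 2, Pdgfra and Lum, lower, beside 22.8% and 42.6% of all genes. Of 12 adipocyte markers 5 passed the filter. At 96 h the adipocyte list summed to 71.3 to 80.8 CPM with WM-2474 and 78.1 to 93.9 with WM-8014. At 240 h its sum was 47.4 to 54.0 CPM with WM-2474 and 35.5 to 39.8 with WM-8014. The defining fat-cell genes Adipoq (at most 0.0682 CPM), Plin1 (at most 0.186) and Cidec (at most 0.0676) were near 0 in all libraries, and Lpl, at 18.4 to 62.2 CPM, made up most of the sum. Of 9 epithelial and mesothelial markers 4 were tested, and the sum of all 9 was 39.6 to 67.4 CPM at 96 h. At 240 h it was 16.6 to 17.8 CPM with WM-2474 and 21.2 to 27.1 with WM-8014. Of the 4, 1 passed as lower with WM-8014 at 96 h and 0 in either direction at 240 h, beside 22.8% and 42.6% of all genes in either direction. Over time 3 passed as lower under WM-2474 and 2 under WM-8014, beside 19.1% and 25% of all genes. The 6 endothelial markers summed to 3.89 to 7.60 CPM at 96 h and 2.31 to 3.12 at 240 h. The 4 of them that were tested all passed as lower over time under both compounds, beside 19.1% of all genes under WM-2474 and 25% under WM-8014. Neural markers (5 of 7 tested) summed to 81.5 to 102 CPM with WM-2474 and 66.7 to 76.9 with WM-8014 at 240 h, after 76.0 to 87.3 at 96 h. Of the 5, 2 passed as lower with WM-8014 at 96 h and 3 at 240 h, beside 11.8% and 21.4% of all genes. Skeletal muscle markers (2 of 7 tested) stood at 21.8 to 25.7 CPM with WM-2474 and 32.3 to 35.2 with WM-8014 at 96 h, and at 28.8 to 35.8 and 82.3 to 106 at 240 h. Des, at 19.2 to 106 CPM, made up most of that sum, and the other tested gene, Mylpf, was at 0.404 to 1.30 CPM. Macrophage and leukocyte markers (4 of 8 tested) summed to 9.19 to 10.95 CPM with WM-2474 and 12.6 to 15.3 with WM-8014 at 96 h. Sums at 240 h were 6.24 to 8.20 CPM with WM-2474 and 11.9 to 13.4 with WM-8014. Of the 4, 1 passed as higher with WM-8014 at 96 h and 2 at 240 h, and 0 as lower. These counts stand beside 22.8% and 42.6% of all genes in either direction. The hepatocyte list (0 of 6 tested) summed to at most 0.279 CPM in any library. The adipocyte, epithelial and endothelial sums were lower at 240 h, as were the genes described here, and the part of these lists in their values was not tested. In whole cultures, fewer cells expressing a gene and less RNA per cell cannot be told apart.

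Transcripts of the stearoyl-CoA desaturase Scd2 were the most abundant of the 10 in each group. Per length, as RPKM (CPM per kilobase of the counted gene length), the order in the WM-2474 96 h group ran from Scd2 at 605 ± 18.1 (mean ± SD, n = 3 cultures here and below) through Scd1 at 210.2 ± 2.72, Acly at 192 ± 3.20, Fads2 at 129 ± 1.99, Fads1 at 117 ± 1.61 and Fasn at 87.2 ± 3.01 down to Elovl5 at 54.9 ± 1.54, Elovl6 at 37.2 ± 0.503, Acss2 at 25.6 ± 1.03 and Acaca at 11.8 ± 0.597. No neighbours in that order overlapped in their 3 libraries. In the WM-8014 240 h group the RPKM order was Scd2 (234), Acly (81.7), Scd1 (61.2), Fads1 (47.1), Fads2 (43.1), Fasn (41.3), Elovl5 (29.4), Elovl6 (10.5), Acss2 (7.56) and Acaca (5.75), in which the neighbours Fads2 and Fasn overlapped. Scd1 and Acly overlapped in the WM-8014 96 h group, and Fads1 with Fads2 and Acss2 with Acaca in the WM-2474 240 h group. Scd2 alone supplied 40.3 to 45.8% of the summed RPKM of the 10 genes in the 12 libraries. The deposited length of Fads2, 1508 bases, is shorter than its longest coding transcript in GENCODE, 3150 bases, so its place in this order depends on that length.

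The bases before the start site are shown for the 4 genes found with a CCAAT box, the element bound by NF-Y. NF-Y is a usual partner of the SREBPs, and its part in these values was not tested. RefSeq (GRCm38.p6, the coordinate system of mm10) had a promoter entry for 7 of the 10 genes and none for Scd1, Scd2 and Fads1. The entries of Acaca and Fasn lie inside the spans of these genes, so the bases shown for Fasn precede 1 annotated start and not the outermost end of the gene. Each sequence below gives the 250 bases before the start site, 5′ to 3′ on the gene's strand, with capitals marking every match on either strand to a CCAAT box, a GC box or an E-box, whose letters are spelled out after the sequences. They lie at chr11:100528001-100528250 (minus strand) for Acly, chr2:155517793-155518042 (plus) for Acss2, chr11:120824548-120824797 (minus) for Fasn and chr9:77917115-77917364 (plus) for Elovl5.
Acly: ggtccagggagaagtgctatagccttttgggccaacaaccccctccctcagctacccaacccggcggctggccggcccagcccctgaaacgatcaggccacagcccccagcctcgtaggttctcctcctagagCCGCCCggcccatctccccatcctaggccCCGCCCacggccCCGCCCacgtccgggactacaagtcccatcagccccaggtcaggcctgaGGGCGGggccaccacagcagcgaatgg
Acss2: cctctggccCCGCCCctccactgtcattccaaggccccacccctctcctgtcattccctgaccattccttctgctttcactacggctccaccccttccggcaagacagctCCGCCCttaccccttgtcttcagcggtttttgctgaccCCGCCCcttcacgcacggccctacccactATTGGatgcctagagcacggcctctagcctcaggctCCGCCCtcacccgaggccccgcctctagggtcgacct
Fasn: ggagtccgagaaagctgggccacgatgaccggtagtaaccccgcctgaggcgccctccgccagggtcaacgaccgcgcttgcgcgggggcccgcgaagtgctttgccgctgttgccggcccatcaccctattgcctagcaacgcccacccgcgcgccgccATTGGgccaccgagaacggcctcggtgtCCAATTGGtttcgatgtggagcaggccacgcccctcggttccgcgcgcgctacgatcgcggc
Elovl5: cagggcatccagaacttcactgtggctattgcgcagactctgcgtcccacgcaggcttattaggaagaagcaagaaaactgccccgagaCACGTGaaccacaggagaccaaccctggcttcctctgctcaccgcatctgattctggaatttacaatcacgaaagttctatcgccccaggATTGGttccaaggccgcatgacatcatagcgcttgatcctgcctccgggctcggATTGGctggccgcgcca
The search covered 300 bases, from 250 before to 50 after the start, in 32851 promoters. CCAAT occurred in 4 of the 7 entries (Acly, Acss2, Elovl5 and Fasn) and in 37.4% of all promoters, and the Acly match lies after the start and so outside the bases shown. In Fasn the capitals CCAATTGG hold a pair of CCAAT matches that overlap on opposite strands. The GC box, GGGCGG, occurred in 3 entries (Acly, Acss2 and Fads2) against 35.7% of all promoters, and the E-box in 1 (Elovl5) against 7.15%. The E-box was written as CACGTG. A sterol regulatory element written as TCACNCCAC was found in 0 of the 7 and in 1.24% of all promoters, which says only that these letters are not in this window.

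At 96 h all 10 genes were lower with WM-8014 than with WM-2474 and passed the test, a share to be read beside 11.8% of the 14136 genes that passed as lower and 22.8% that passed in either direction (edgeR quasi-likelihood test, Benjamini-Hochberg adjusted p under 0.05 over all genes tested, as for each adjusted p below). Log2 fold changes ran from -0.42 for Fads2 to -0.19 for Fads1, with a median of -0.25 beside 0.00 for all genes. In each of the 10 the WM-8014 libraries lay wholly below the WM-2474 libraries, which held for 19.9% of all genes. The summed level of the 10 was 7187 ± 98.3 CPM with WM-2474 and 6013 ± 139.9 with WM-8014. Without WM-2474 96 h cultures 6 and 7 together, which leaves 1 library in that group with its spread taken from the other groups, 7 of the 10 passed. Acaca (adjusted p = 0.129), Acss2 (0.16) and Elovl6 (0.152) then did not.

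At 240 h 9 of the 10 passed as lower with WM-8014, beside 21.4% of all genes lower and 42.6% in either direction, and Acss2 did not pass. The median log2 fold change was -0.43 (all genes 0.01) and the range was -0.64 for Elovl6 to -0.13 for Acly among the 9 that passed. The groups did not overlap for those 9 genes, as for 25.6% of all genes on the lower side. The summed level was 3749 ± 127 CPM with WM-2474 and 2788 ± 32.7 with WM-8014. With library totals in place of TMM factors the split of all passing genes went from 2996 higher and 3031 lower to 2361 and 3909, and the same 9 genes passed.

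All 10 genes were lower at 240 h than at 96 h under both compounds. Under WM-2474 all 10 passed as lower, with a median log2 fold change of -0.90 (all genes -0.01) beside 19.1% of all genes lower and 38.9% in either direction. Under WM-8014 all 10 passed as well and the median was -1.13 (all genes -0.02), beside 25% lower and 49.7% in either direction. None of the 10 overlapped between the times under either compound, which held on the lower side for 25% of all genes under WM-2474 and 28.8% under WM-8014. Library totals in place of TMM factors shifted the median of all genes by -0.142 under WM-2474 and -0.181 under WM-8014, and all 10 genes still passed as lower. That scaling turned the split of all passing genes from 2800 higher and 2697 lower into 1365 and 5955 under WM-2474, and from 3504 and 3527 into 1749 and 6850 under WM-8014. The comparisons over time share their libraries with the compound comparisons, so the 4 sets of values are not independent. Time under compound and time in culture cannot be told apart in this design.

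**Figure D1:**
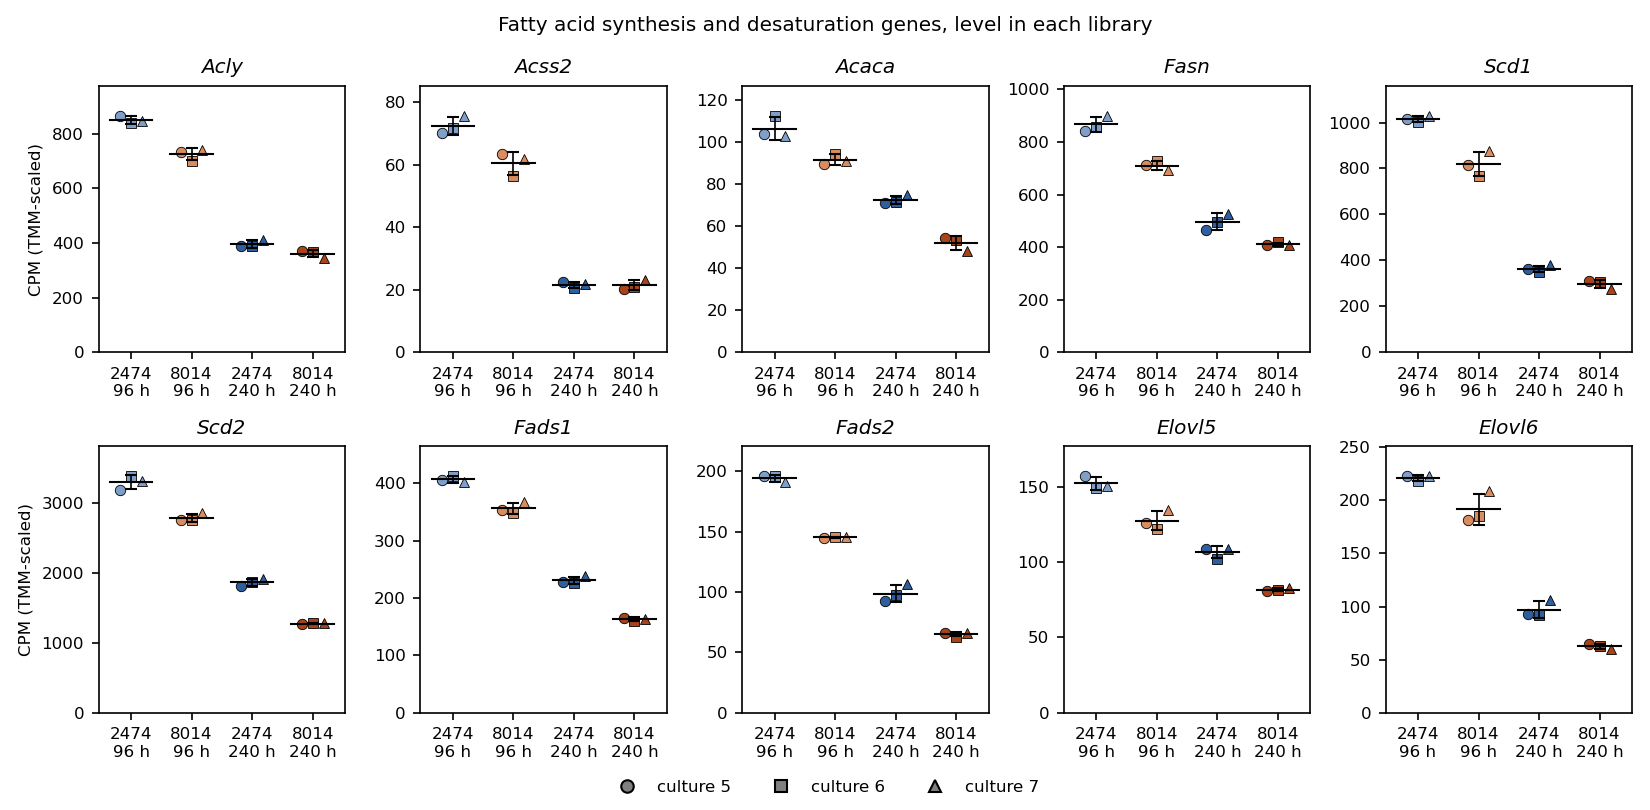
Level of each of the 10 genes in the 12 libraries, in CPM scaled by TMM, on axes that start at 0; symbols are cultures 5, 6 and 7, the horizontal line is the group mean and the bar its SD (n = 3). In each panel the 96 h groups lie above the 240 h groups, and only in the Acss2 panel do the WM-8014 and WM-2474 libraries overlap at 240 h.

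The effect of WM-8014 was larger at 240 h than at 96 h for 4 of the 10 genes. The test of the difference between the effects (240 h minus 96 h) passed for Elovl6, Fads1, Scd2 and Acaca, all toward a lower level at 240 h, beside 5.53% of all genes on that side and 10.7% on either (728 higher and 782 lower, or 519 and 1059 with library totals in place of TMM factors). For Acly, Acss2, Fasn, Scd1, Fads2 and Elovl5 it did not pass, and their intervals are given below with each gene. All 4 groups enter this test, so it is not independent of the effects it compares.

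**Figure D2:**
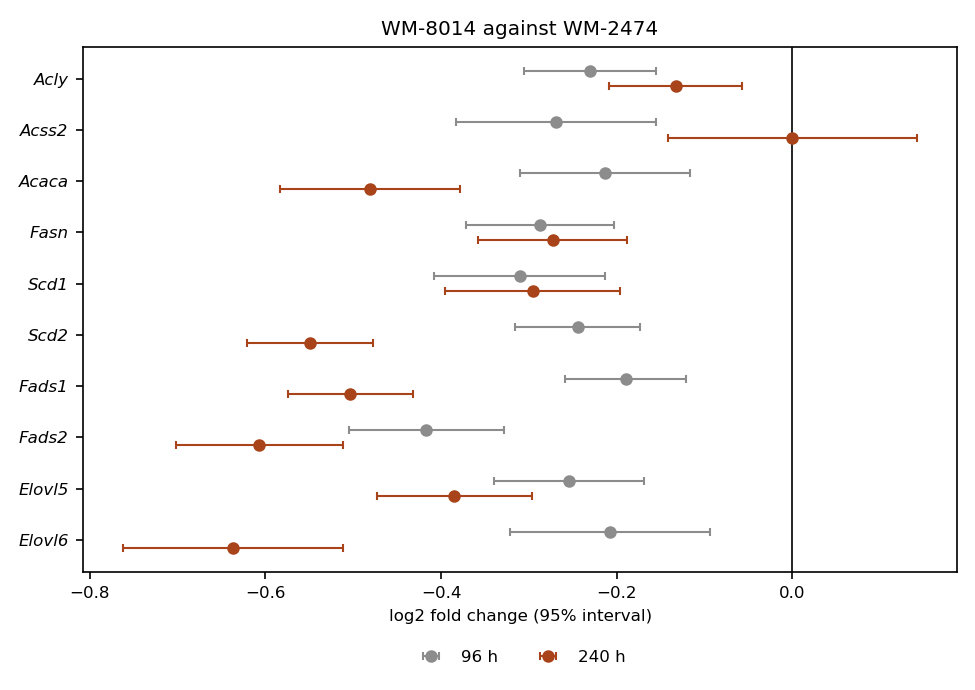
Log2 fold change of WM-8014 against WM-2474 for the 10 genes at 96 h (grey) and 240 h (brown), with 95% intervals from the fit over all 12 libraries. Each 96 h interval lies below 0; at 240 h that of Acss2 is centred on 0, and the points of Elovl6, Fads1, Scd2 and Acaca lie further left than at 96 h.

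The suppliers of acetyl-CoA had the smallest compound effects of the 10 at 240 h. Acly (Entrez 104112, chr11:100476352-100528000), the citrate-cleaving enzyme, stood at 867, 839 and 849 CPM in WM-2474 96 h cultures 5, 6 and 7 and at 735, 702 and 740.4 with WM-8014. At 240 h the same cultures gave 389, 388 and 412 CPM with WM-2474 and 371, 366 and 347 with WM-8014. The WM-8014 libraries were lower at both times with no overlap, though the gap at 240 h was narrow, 388 against 371 CPM between the nearest libraries. The log2 fold change with WM-8014 was -0.23 (SE 0.036, adjusted p = 0.000111) at 96 h and -0.13 (SE 0.0365, adjusted p = 0.00543) at 240 h. Without culture 7 in all groups the 240 h value was -0.08 (adjusted p = 0.162, the highest over the alternatives, from 0.000359). The difference between the effects was 0.10 (95% interval -0.01 to 0.20, adjusted p = 0.262). Over time Acly fell by 1.10 on the log2 scale under WM-2474 and by 1.01 under WM-8014.

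Acss2 (Entrez 60525, chr2:155518043-155562743), which activates acetate, fell with WM-8014 at 96 h and was the 1 gene of the 10 that did not pass at 240 h. Its levels in cultures 5, 6 and 7 were 70.0, 71.7 and 75.7 CPM with WM-2474 and 63.4, 56.3 and 61.8 with WM-8014 at 96 h. By 240 h they were 22.4, 20.5 and 21.7 CPM with WM-2474 and 20.2, 20.8 and 23.3 with WM-8014, so the groups were apart at 96 h and overlapped at 240 h. At 96 h the log2 fold change was -0.27 (SE 0.0547, adjusted p = 0.00125), and at 240 h it was 0.00, with an interval of -0.14 to 0.14 (adjusted p = 1). The difference between the effects, 0.27 (interval 0.09 to 0.45), missed the threshold (adjusted p = 0.0525). It passed when culture was a block in the fit (0.0257), with RLE size factors (0.0456), with no filter on low counts (0.0323), and without culture 5 in all groups (0.0395), in the WM-8014 96 h group (0.0426) or in the WM-2474 240 h group (0.049), within a range of 0.0257 to 0.364 over all alternatives. The decline with time was the steepest of the 10 under WM-2474, -1.76 on the log2 scale (adjusted p = 2.47e-15), and was -1.49 under WM-8014. In the RPKM ratio of Acss2 to Acly the compound groups overlapped at both times.

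Fasn and Acaca, the enzymes of chain synthesis, fell with WM-8014 at both times. Fasn (Entrez 14104, chr11:120805958-120825166) was at 843, 856 and 900.2 CPM in WM-2474 cultures 5, 6 and 7 and at 712, 726 and 692 in WM-8014 cultures at 96 h. The 240 h values were 464, 497 and 528 CPM and 408, 418 and 406. WM-8014 libraries were the lower ones at each time without overlap. Its log2 fold change was -0.29 (SE 0.0405, adjusted p = 3.94e-05) at 96 h and -0.27 (SE 0.0409, adjusted p = 1.35e-05) at 240 h, a difference of 0.01 with an interval of -0.10 to 0.13 (adjusted p = 0.921). The declines with time were -0.80 under WM-2474 and -0.79 under WM-8014.

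Acaca (Entrez 107476, chr11:84129635-84401651), the acetyl-CoA carboxylase of the cytosol, gave 104, 112 and 103 CPM with WM-2474 and 89.3, 94.3 and 90.7 with WM-8014 in cultures 5, 6 and 7 at 96 h. After 240 h these were 70.9, 71.5 and 74.8 CPM and 54.1, 53.4 and 48.3. The WM-8014 libraries were lower at both times, with the wider gap at 240 h. The compound effect went from -0.21 (SE 0.0467, adjusted p = 0.00221) to -0.48 (SE 0.0492, adjusted p = 7.85e-08), and the difference of -0.27 passed (SE 0.0678, adjusted p = 0.0126). That call was lost without WM-2474 96 h culture 7 (adjusted p = 0.0522) and without culture 7 in all groups, where the difference was -0.17 (adjusted p = 0.231, in a range of 0.00374 to 0.231 over all alternatives). Over time Acaca fell by 0.55 under WM-2474 and by 0.82 under WM-8014 on the log2 scale. Tada2a overlaps Acaca on the genome and had 5768 reads over the 12 libraries, 30.2% of the 19078 of Acaca, and whether the counting kept their strands apart is not given in the sources used here.

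The stearoyl-CoA desaturases lie in 1 cluster on chromosome 19, and both fell with WM-8014 at both times. Scd1 (Entrez 20249, chr19:44394450-44407709) was at 1016, 1004 and 1030.2 CPM in WM-2474 cultures 5, 6 and 7 at 96 h and at 816, 768 and 875 with WM-8014. At 240 h the values were 362, 350.1 and 378 CPM with WM-2474 and 309, 304 and 275 with WM-8014. Groups were apart at both times. The log2 fold change was -0.31 (SE 0.0463, adjusted p = 0.000101) at 96 h and -0.30 (SE 0.0475, adjusted p = 4.6e-05) at 240 h. They differed by 0.01 with an interval of -0.12 to 0.15 (adjusted p = 0.933).

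Scd2 (Entrez 20250, chr19:44293676-44306864), the isoform known from brain and other tissues outside the liver, was present at 3192, 3388 and 3317 CPM with WM-2474 and 2752, 2749 and 2853 with WM-8014 at 96 h. The 240 h libraries held 1810.2, 1872 and 1916 CPM with WM-2474 and 1269.6, 1277 and 1278 with WM-8014. The WM-8014 240 h libraries, at 1269.6 to 1278 CPM, were the lowest of the 12 and the closest to each other. Its log2 fold change went from -0.24 (SE 0.0344, adjusted p = 3.96e-05) at 96 h to -0.55 (SE 0.0346, adjusted p = 7.46e-11) at 240 h, and the difference of -0.30 passed (SE 0.0487, adjusted p = 0.000239). Over time Scd1 fell by 1.48 and 1.47 on the log2 scale under WM-2474 and WM-8014, and Scd2 by 0.82 and 1.13.

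The RPKM ratio of Scd1 to Scd2 was 0.348 ± 0.0125 in the WM-2474 96 h group, 0.332 ± 0.0155 with WM-8014 at 96 h, 0.220 ± 0.00762 with WM-2474 at 240 h and 0.262 ± 0.0165 with WM-8014 at 240 h. The 240 h groups did not overlap in this ratio and the 96 h groups did. An exact two-sided permutation test of 3 against 3 libraries cannot go below p = 0.1, which it reached for the ratio at 240 h (0.16 after Benjamini-Hochberg adjustment over 16 ratio comparisons) and for both changes over time. The coding sequences of Scd1 and Scd2 were 89.8% identical with a longest shared run of 147 bases, so some reads may be shared between them and their separate levels are uncertain. The same holds for their neighbours Scd3 and Scd4, which lie at gaps of 26.5 to 49.7 kb. Scd3 was at 6.44 ± 0.433 CPM in the WM-2474 96 h group and 1.79 ± 0.288 in the WM-8014 240 h group, and Scd4 at 3.28 ± 0.865 and 1.04 ± 0.0645. These groups differ in both compound and time. The effect of WM-8014 passed for neither gene at 96 h (log2 fold changes -0.21 and -0.14), nor for Scd4 at 240 h (-0.40). For Scd3 at 240 h it passed as lower (-0.50), a call lost in 9 of 23 alternatives.

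**Figure D3:**
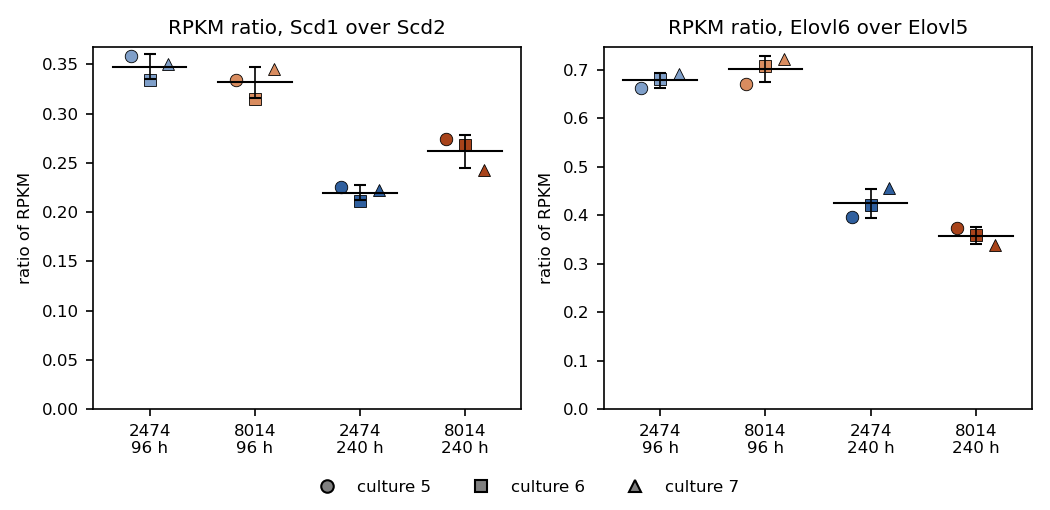
Ratio of RPKM of Scd1 to Scd2 (left) and of Elovl6 to Elovl5 (right) in each library, with group mean and SD (n = 3, symbols as cultures). Both ratios lie lower at 240 h than at 96 h, and at 240 h WM-8014 libraries lie above WM-2474 libraries for Scd1 over Scd2 and below them for Elovl6 over Elovl5.

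Fads2 and Fads1, which place double bonds in polyunsaturated chains, lie side by side on chromosome 19 with Fads3, of less certain function, next to Fads2 at a gap of 2.7 kb. Fads2 (Entrez 56473, chr19:10062765-10101503) was at 196, 196 and 191 CPM in WM-2474 cultures 5, 6 and 7 and at 145, 145 and 145 in WM-8014 cultures at 96 h. At 240 h the values were 92.4, 97.1 and 107 CPM and 65.7, 62.8 and 66.3. All WM-8014 libraries lay below their WM-2474 counterparts. The log2 fold change at 96 h, -0.42 (SE 0.0425, adjusted p = 1.05e-06), was the strongest of the 10 in the compound comparison at that time, and at 240 h it was -0.61 (SE 0.0456, adjusted p = 9.32e-10). The difference of -0.19 (interval -0.32 to -0.06) missed the threshold (adjusted p = 0.0544). It passed with culture as a block in the fit (0.0368), with library totals in place of TMM (0.0167), with no filter (0.0439), and without WM-2474 240 h culture 5 (0.0104), WM-8014 240 h culture 7 (0.0461) or culture 5 in all groups (0.0462), and ranged from 0.0104 to 0.441 over all alternatives.

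Fads1 (Entrez 76267, chr19:10182877-10196874) was at 405, 413 and 402 CPM with WM-2474 and 353, 348 and 367 with WM-8014 at 96 h. It was at 228, 226 and 238 CPM and 165, 159 and 164 at 240 h, again with no overlap at either time. Its compound effect was -0.19 (SE 0.0332, adjusted p = 0.000316) at 96 h and -0.50 (SE 0.0343, adjusted p = 2.04e-10) at 240 h, and the difference of -0.31 passed (SE 0.0477, adjusted p = 0.000146). Over time Fads2 fell by 0.97 and 1.17 under WM-2474 and WM-8014, and Fads1 by 0.82 and 1.13, on the log2 scale. The RPKM ratio of Fads1 to Fads2 was 0.913 ± 0.0109 with WM-2474 and 1.069 ± 0.0287 with WM-8014 at 96 h, where the groups were apart (exact permutation p = 0.1, adjusted 0.16). At 240 h it was 1.022 ± 0.0523 and 1.094 ± 0.0148, where they overlapped.

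Fads3, the third gene of the cluster, went the other way from its neighbours. It was at 172 ± 7.86 CPM with WM-2474 and 208 ± 6.13 with WM-8014 at 96 h, and at 178 ± 6.80 and 278 ± 3.17 at 240 h. The log2 fold change of Fads3 was 0.27 (SE 0.039, adjusted p = 4.42e-05) at 96 h and 0.64 (SE 0.0383, adjusted p = 3.09e-11) at 240 h, with no overlap between groups, and the effects differed by 0.37 (adjusted p = 0.000107). Fads2 and Fads3 were 70.5% identical in coding sequence with a longest shared run of 54 bases, and Fads1 and Fads2 66.8% with a run of 17 bases.

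Elovl5 and Elovl6, elongases of polyunsaturated chains and of saturated and monounsaturated chains respectively, were both lower with WM-8014. Elovl5 (Entrez 68801, chr9:77917365-77984519) stood at 157, 149 and 151 CPM in WM-2474 cultures 5, 6 and 7 and at 126, 122 and 135 in WM-8014 cultures at 96 h. At 240 h it was at 109, 102 and 109 CPM and 80.6, 81.7 and 82.7. The groups were apart at both times, and the WM-2474 240 h libraries were also below all WM-8014 96 h libraries. Its log2 fold change was -0.25 (SE 0.0412, adjusted p = 0.000156) at 96 h and -0.38 (SE 0.0425, adjusted p = 2.33e-07) at 240 h. These differed by -0.13 (interval -0.25 to -0.01, adjusted p = 0.183).

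Elovl6 (Entrez 170439, chr3:129532386-129638495) was at 223, 218 and 223 CPM with WM-2474 and 181, 185 and 208 with WM-8014 at 96 h. The 240 h values were 92.6, 92.3 and 106 CPM with WM-2474 and 64.7, 62.8 and 60.1 with WM-8014. At 96 h WM-8014 culture 7 lay nearest to the WM-2474 libraries, and at 240 h the WM-8014 libraries lay at 60.1 to 64.7 CPM, below all WM-2474 libraries. The effect of the compound at 96 h, -0.21 (SE 0.0541, adjusted p = 0.0104), no longer passed without WM-8014 96 h culture 5 (0.0559), without culture 5 in all groups (0.128) or without culture 6 in all groups (0.0801), in a range of 0.000947 to 0.152 over all alternatives. At 240 h it was -0.64 (SE 0.0592, adjusted p = 1.47e-07), the strongest of the 10 at that time, and the difference of -0.43 passed (SE 0.0802, adjusted p = 0.0019). Over time Elovl5 fell by 0.51 and 0.64 on the log2 scale under WM-2474 and WM-8014, and Elovl6 by 1.19 and 1.62. The RPKM ratio of Elovl6 to Elovl5 was 0.678 ± 0.0152 and 0.701 ± 0.0266 at 96 h with WM-2474 and WM-8014, where the groups overlapped, and 0.425 ± 0.0296 and 0.358 ± 0.0176 at 240 h, where they were apart (exact permutation p = 0.1, the smallest possible, adjusted 0.16).

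**Figure D4:**
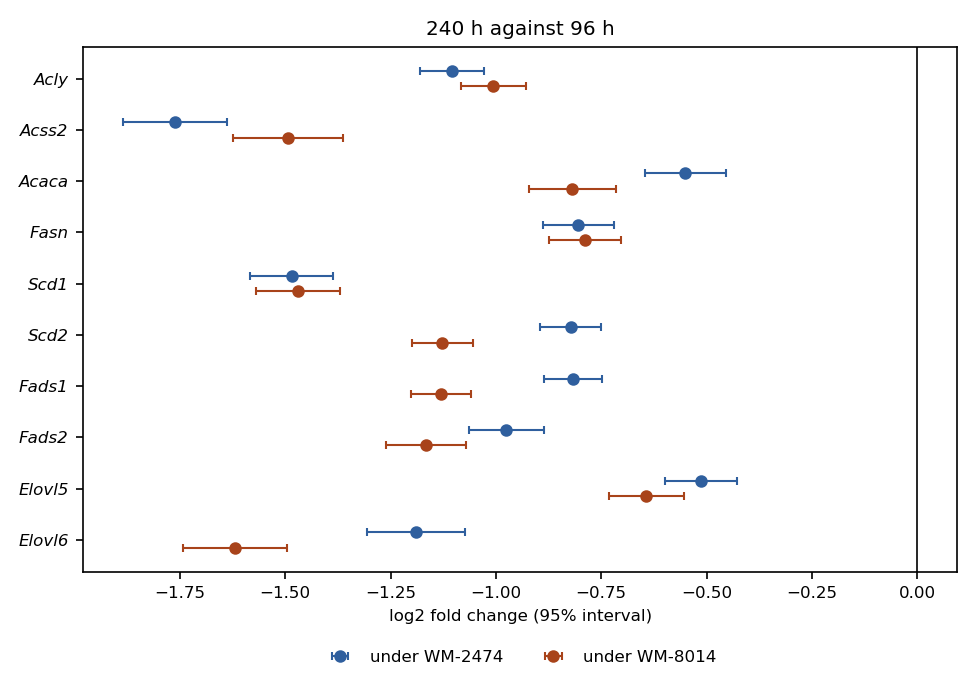
Log2 fold change of 240 h against 96 h for the 10 genes under WM-2474 (blue) and WM-8014 (brown), with 95% intervals. All points lie below 0, from -1.76 (Acss2 under WM-2474) to -0.51 (Elovl5 under WM-2474).

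The 10 genes had similar profiles over the 12 libraries, with a fall from 96 to 240 h in each. Their compound effects were less alike, as given above for Acss2 and Elovl6 at 240 h. Each gene correlated with the mean standardised log2 CPM of the other 9 at a Pearson r of 0.947 (Acss2) to 0.995 (Fads1), a description over libraries that share compound, time and culture. Among 11503 other genes with a mean log2 CPM of at least 1, those most like the mean profile were Lss (r = 0.999), Fdps (0.997), Scarb1 (0.997), Mvk (0.996), Fdft1 (0.995) and Pmvk (0.995). Lss, Fdps, Mvk, Fdft1 and Pmvk encode enzymes of cholesterol synthesis and Scarb1 a receptor for high-density lipoprotein. Lss, the lanosterol synthase, was at 264 ± 5.53 and 208 ± 4.93 CPM at 96 h with WM-2474 and WM-8014, and at 107 ± 3.53 and 75.8 ± 0.904 at 240 h.

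Genes that control this pathway were called in both directions, as genes in general were. Of 13 tested genes of SREBP, LXR and ChREBP control (Srebf1, Srebf2, Scap, Insig1, Insig2, Mbtps1, Mbtps2, Nr1h2, Nr1h3, Rxra, Mlx, Fbxw7 and Stard4), 3 were higher, 3 lower and 7 short of the threshold at 96 h, and 6 were higher, 4 lower and 3 short of the threshold at 240 h, with medians of 0.01 and 0.08 on the log2 scale. Of all genes 22.8% passed at 96 h and 42.6% at 240 h in either direction, split about evenly, and these shares also stand beside the counts of the 3 lists that follow. The 3 higher at 96 h became 1 with DESeq2, without WM-2474 96 h culture 6 or 7, without WM-8014 96 h culture 5 or without culture 5 in all groups, and 0 without culture 6 in all groups or without WM-2474 96 h cultures 6 and 7 together. Srebf1, which encodes the SREBP form tied most closely to fatty acid genes, was at 194 ± 3.82 and 188 ± 7.46 CPM at 96 h with WM-2474 and WM-8014 and at 169.9 ± 1.08 and 147 ± 2.88 at 240 h. Its log2 fold change was -0.05 (adjusted p = 0.375, groups overlapping) at 96 h and -0.21 (adjusted p = 6.42e-05) at 240 h. Srebf2, the form tied to cholesterol genes, fell at both times, by 0.21 (adjusted p = 0.000335) and 0.23 (adjusted p = 3.74e-05). Insig1, the anchor that is itself an SREBP target, fell by 0.28 (adjusted p = 0.000318) and 0.28 (adjusted p = 0.000116), and over time by 1.33 under WM-2474 and 1.33 under WM-8014.

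Scap, the SREBP escort, had a log2 fold change of 0.07 (adjusted p = 0.258) at 96 h and rose by 0.28 (adjusted p = 1e-05) at 240 h. Nr1h2, an LXR receptor, rose by 0.31 at 240 h (adjusted p = 8.5e-06), and its 96 h change of 0.15 (adjusted p = 0.0197) was lost with DESeq2 (0.0602) and without WM-2474 96 h culture 6 (0.0502) or 7 (0.0874), without WM-8014 96 h culture 5 (0.154), or without culture 5 (0.194) or 6 (0.0854) in all groups, in a range of 0.00705 to 0.321. Stard4, a sterol carrier, fell by 0.35 and 0.39 (adjusted p = 0.000514 and 0.00014).

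The list of enzymes that work with the desaturases and elongases also held further members of both families, among them Fads3, Scd3, Scd4 and Elovl4. Of its 15 tested genes, 3 were higher, 2 lower and 10 short of the threshold at 96 h (with culture as a block, 5 rose). At 240 h 6 were higher, 2 lower and 7 short of the threshold. The median log2 fold changes were -0.07 and 0.04, beside 22.8% and 42.6% of all genes passing. Cyb5r3, the reductase that passes electrons to cytochrome b5, rose by 0.21 (adjusted p = 0.000217) at 96 h and 0.27 (adjusted p = 2.72e-06) at 240 h. Hsd17b12, the ketoacyl-CoA reductase of chain elongation, fell by 0.21 (adjusted p = 0.000356) at 96 h and had a log2 fold change of 0.00 (adjusted p = 0.96) at 240 h. Elovl4, an elongase of very long chains, was rare, at 5.07 ± 0.684 and 2.67 ± 0.506 CPM at 96 h and 3.34 ± 0.320 and 0.813 ± 0.188 at 240 h. Its log2 fold changes were -0.97 (adjusted p = 0.000361) and -2.08 (adjusted p = 1.63e-07), the latter resting on 44 reads in the WM-8014 group.

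The list for precursors, NADPH and acyl-CoA supply also held the kinase genes Prkaa1 and Prkaa2 and the malonyl-CoA decarboxylase gene Mlycd. Of its 16 tested genes, 0 were higher, 4 lower and 12 short of the threshold at 96 h (with culture as a block, 1 rose). At 240 h 2 were higher, 6 lower and 8 short of the threshold. Their medians were -0.03 and 0.01 on the log2 scale, and the shares called in either direction were near the 22.8% and 42.6% of all genes. The 4 and 6 of 16 that were lower stand beside 11.8% of all genes lower at 96 h and 21.4% at 240 h. Acsl3, an acyl-CoA synthetase of lipid droplets and the endoplasmic reticulum, was at 121 ± 4.13 and 93.3 ± 8.49 CPM at 96 h and 56.7 ± 0.442 and 38.1 ± 2.37 at 240 h with WM-2474 and WM-8014. It fell by 0.37 (adjusted p = 4.21e-05) and 0.56 (adjusted p = 1.11e-07). Acat2, a cytosolic thiolase, fell by 0.22 (adjusted p = 0.00156) and 0.35 (adjusted p = 1.05e-05). Acsl6 passed as lower at both times (adjusted p = 0.00145 and 4.58e-05) on few reads, 73 with WM-2474 and 8 with WM-8014 at 96 h and 53 and 3 at 240 h.

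**Figure D5:**
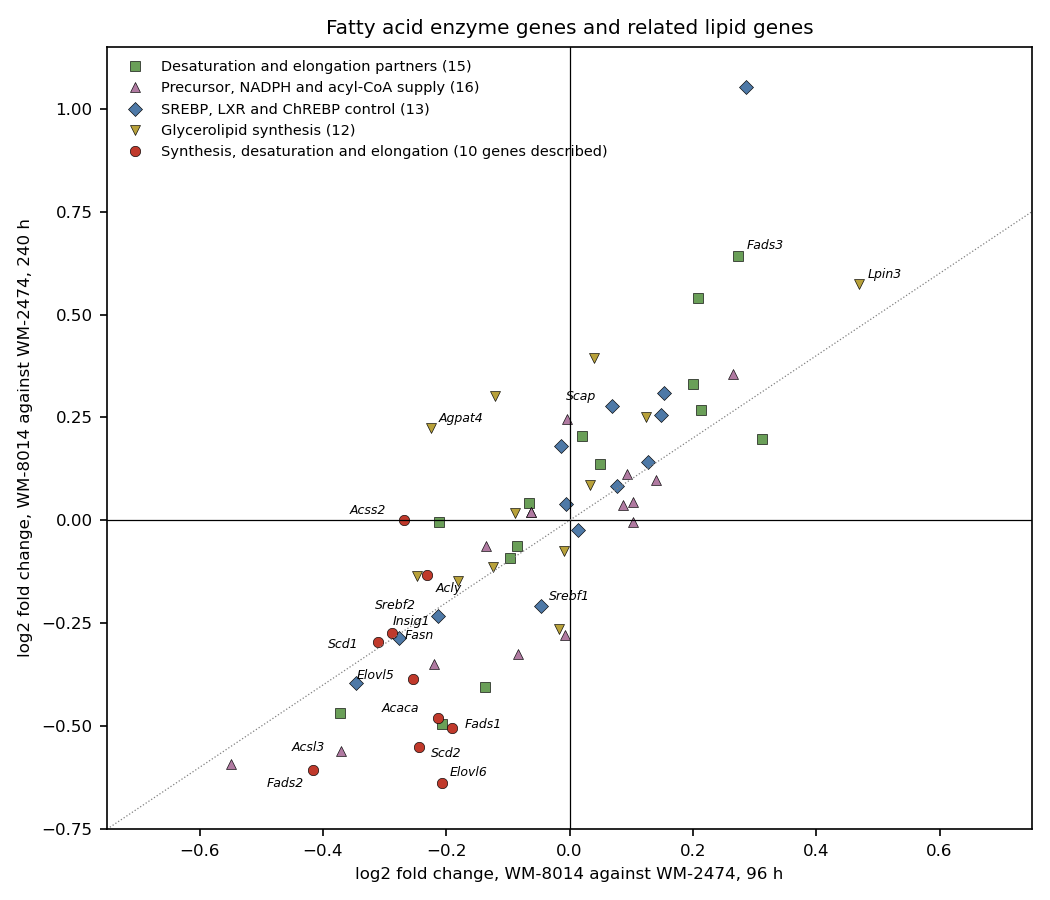
Log2 fold change of WM-8014 against WM-2474 at 96 h (horizontal) and 240 h (vertical) for the 10 genes (red circles) and the tested genes of 4 related lists, with the line of equal effect dotted. Acsl6 and Elovl4 lie outside the axes at the lower left; 9 of the red circles lie below 0 on both axes and Acss2 lies on the line of no change at 240 h.

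The glycerolipid list held genes of synthesis, which use the fatty acids made, and also the lipase gene Pnpla2. Of its 12 tested genes, 1 was higher, 3 lower and 8 short of the threshold at 96 h. At 240 h 4 were higher, 2 lower and 6 short of the threshold. These counts stand beside 22.8% and 42.6% of all genes passing. Agpat1, an acyltransferase of phosphatidic acid synthesis, fell by 0.18 (adjusted p = 0.00201) at 96 h and 0.15 (adjusted p = 0.00352) at 240 h, and the latter was lost without culture 6 (0.0645) or 7 (0.0709) in all groups, in a range of 0.000272 to 0.0709. Pnpla2, the triglyceride lipase of lipid droplets, had log2 fold changes of 0.12 (adjusted p = 0.113) and 0.25 (adjusted p = 0.000639). Agpat3, of the same family as Agpat1, had -0.02 (adjusted p = 0.836) and -0.26 (adjusted p = 0.000126). Agpat4, another acyltransferase, had -0.23 (adjusted p = 0.0205) and 0.22 (adjusted p = 0.00872, groups overlapping). Its 96 h call was lost without WM-2474 96 h culture 5 (0.0668) or 6 (0.0664), WM-8014 96 h culture 7 (0.0905), or culture 5 (0.0728) or 6 (0.104) in all groups, and the 240 h call after thinning to equal depth (0.113), without WM-8014 240 h culture 7 (0.0628) or without culture 7 in all groups (0.14). The ranges over all alternatives were 0.00708 to 0.104 and 0.00282 to 0.14.

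The phosphatidate phosphatases Lpin2 and Lpin3 belong to the same list. Lpin2 fell by 0.25 (adjusted p = 0.0131) at 96 h and was at -0.14 (adjusted p = 0.106) at 240 h, where it passed with culture as a block (0.0426), with library totals (0.0259) and without WM-2474 240 h culture 5 (0.0177). Its 96 h call was lost without WM-2474 96 h culture 7 (0.0507), WM-8014 96 h culture 5 (0.079), or culture 5 (0.057) or 7 (0.105) in all groups, in a range of 0.00514 to 0.353. Lpin3, the rarer form at 5.16 ± 0.807 CPM in the WM-2474 96 h group, had log2 fold changes of 0.47 (adjusted p = 0.0348, groups overlapping) and 0.57 (adjusted p = 0.00293). The 96 h call of Lpin3 was lost with DESeq2 (0.0829), after thinning to equal depth (0.19), without WM-2474 96 h culture 6 (0.0662) or 7 (0.275), without WM-8014 96 h culture 5 (0.1) or 6 (0.156), and without culture 5 (0.053), 6 (0.174) or 7 (0.169) in all groups, in a range of 0.019 to 0.747. Without WM-2474 96 h cultures 6 and 7 together, the 96 h calls of Agpat1 (0.154), Agpat4 (0.0885), Lpin2 (0.353) and Lpin3 (0.747) were lost, and in the lists above those of Stard4 (0.0617), Nr1h2 (0.321), Elovl4 (0.0517) and Acat2 (0.0639).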

How the data were processed

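Whole-gene read counts were deposited for each library by Entrez identifier. Per the submitters' processing notes the authors made them with featureCounts on mm10. For the aligner, annotation, strand setting and tool version, nothing is given in the sources used here. Per the labels' protocols, RNA was isolated with RNeasy columns and libraries were made with the TruSeq Stranded mRNA kit. The authors also deposited a gene length per row (other unit, bases), used here for RPKM alone. The series' design text calls the 3 samples of a group biological replicates.

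Counts were fitted in R 4.3.3 with edgeR 4.0.16 (filterByExpr by group with a minimum of 10 counts, TMM, robust quasi-likelihood F test, two-sided), with a mean per group over all 12 libraries. The 14136 genes tested held 99.93% or more of every library's reads. Benjamini-Hochberg adjustment ran over all genes tested, with a threshold of 0.05. SEs came from log2 fold change and F, and intervals are 95%. CPM used TMM-scaled totals, and a prior count of 2 served log2 CPM. Symbols matched 25275 of 27179 identifiers in RefSeq GRCm38.p6, from which coordinates (counted from 1) and promoters were taken. Coding identity came from the longest reading frame of the longest coding transcript in GENCODE M21. The scripts were tested on simulated counts.

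The 10 genes, the related lists, the tests and most alternatives were chosen with earlier results of these data known. Named genes outside the 10 were the 3 smallest p values per list at each time, Srebf1, Srebf2, Scap and Insig1 whatever their values, and the 6 genes most correlated with the mean profile. From the control list 3 genes are not reported here and are in none of its counts. Scd3, Scd4, Me1, Pparg, Fabp4, Lpl, Cebpa and Adrb3 were named after their values were seen. Alternatives were RLE size factors, library totals, DESeq2 1.42.0, no filter, thinning to the smallest total, the fit of the compared groups alone, the replicate number as a block, and leaving out libraries or cultures. Same-numbered cultures deviated together from their group means at 96 h (r = 0.141, 0.150 and 0.158, all over 0.1), so the numbers may pair those libraries. The main tests held no term for culture, and the block was run only as an alternative. At 240 h r was 0.0636, 0.243 and 0.0475. Between groups of different times r ranged from 0.0289 to 0.190, and the labels do not say whether the numbers pair those libraries. Replicates differed by more than sampling noise (chi-square per degree of freedom 2.10 to 7.13).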

Additional observations from a re-analysis of the deposited data

Results flagged for a closer look

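Groups of 3 libraries were too small for a test of single outlying libraries. The effect of WM-8014 against WM-2474 differed between 240 and 96 h, by the edgeR test of the difference itself, for the following genes. All differences are on the log2 scale, 240 h minus 96 h.

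Among the 10 fatty acid genes the differences that passed were -0.268 for Acaca, -0.305 for Scd2, -0.314 for Fads1 and -0.43 for Elovl6, each with a larger fall at 240 h. The adjusted p values of Scd2, Fads1 and Elovl6 stayed under the threshold in all 22 alternatives. That of Acaca did so in 20.

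Among the related genes named, Fads3 had a difference of 0.37, a larger rise at 240 h, and Agpat4 one of 0.45, from a lower level at 96 h to a higher one at 240 h. Both passed in all 22 alternatives. Hsd17b12, at 0.209, missed the threshold without WM-8014 240 h culture 6 (adjusted p = 0.0519), without culture 5 (0.13) or 6 (0.139) in all groups, and without WM-2474 96 h cultures 6 and 7 (0.132).

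The remaining differences on these lists missed the threshold under more alternatives, some of which kept all libraries. Scap, at 0.208, missed it in 9 of 22 alternatives (adjusted p from 0.0134 to 0.162), library totals among them (0.0679). Elovl4, at -1.12, missed it in 7 (0.0107 to 0.278), with thinning to equal depth among them (0.278). Agpat3, at -0.246, did so in 11 (0.00781 to 0.289), DESeq2 among them (0.0554). Srebf1, at -0.162, did so in 16 (0.00912 to 0.332), which included RLE size factors (0.0519), DESeq2 (0.0879), no filter (0.0638) and thinning (0.0641).

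Among genes named after their values were seen, the difference was 0.855 for Pparg, which missed the threshold in 1 of 22 alternatives (0.0525 without culture 6 in all groups), and -1.06 for Lpl, which passed in all 22. For Me1 it was 0.251 and missed the threshold without WM-8014 240 h culture 6 (0.0502), without culture 5 (0.204) or 6 (0.187) in all groups, and without WM-2474 96 h cultures 6 and 7 (0.0581).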

How the results depend on the processing

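All 10 genes passed as lower over time under both compounds in each alternative. As lower with WM-8014, 9 to 10 passed at 96 h and 8 to 9 at 240 h when single libraries or cultures were left out, and 7 at 96 h without WM-2474 96 h cultures 6 and 7 together. For the difference between the effects 3 to 5 passed toward lower and 0 to 1 toward higher under those left out. The 1, Acss2, also passed with RLE size factors, with no filter and with the replicate block. The block gave 1737 genes higher and 1853 lower at 96 h, and 917 and 923 for the difference, against 728 and 782 without it. It changed the calls of Acss2, Fads2 and Lpin2, as given above, and of no other gene given with an adjusted p. Leaving out libraries or cultures gave 847 to 1616 genes higher and 903 to 1776 lower at 96 h, 315 to 802 and 409 to 801 for the difference, and 1995 to 2846 and 1821 to 2742 over time under WM-2474. Without WM-2474 96 h cultures 6 and 7 together, the deepest library among them, counts were 432 and 437 at 96 h, 240 and 346 for the difference, and 1454 and 1256 over time under WM-2474. Library totals gave 1365 higher and 5955 lower over time under WM-2474 and 1749 and 6850 under WM-8014. Under them the change over time with WM-2474 reversed for Fads3, from 0.05 to -0.10 (adjusted p = 0.0355), and for Nr1h2, from 0.12 to -0.027 (adjusted p = 0.634). The causes were not tested beyond the smaller number of libraries. With 3 cultures a group, ratios of genes could not reach p = 0.05 in an exact test, and Elovl4, Acsl6, Scd3 and Scd4 rest on low counts.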

Other observations

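The 5 fat-cell markers that were tested had no common direction with WM-8014: 1 was higher and 1 lower at 96 h, and 2 were higher and 2 lower at 240 h by edgeR. Of all genes 22.8% and 42.6% passed in either direction at these times. Over time 4 of the 5 markers fell under WM-2474 and 3 under WM-8014, beside 19.1% and 25% of all genes, and Adrb3 rose under both. Pparg, the nuclear receptor of adipocyte formation, had log2 fold changes with WM-8014 of 0.30 (adjusted p = 0.0524, in a range of 0.043 to 0.589 over the alternatives) at 96 h and 1.16 (adjusted p = 1.38e-07) at 240 h by edgeR, with a difference of 0.86 (adjusted p = 0.0015), at 3.02 to 8.59 CPM over the 12 libraries. Fabp4, a fatty acid-binding protein of fat cells and macrophages, rose by 1.12 (adjusted p = 0.000501) and 1.31 (adjusted p = 0.000701), at 0.578 to 5.37 CPM. The 96 h call of Fabp4 was lost without WM-2474 96 h cultures 6 and 7 (0.199) and its 240 h call without culture 6 in all groups (0.0841). Adrb3, a beta-adrenergic receptor of fat cells, was rare (0.541 to 3.02 CPM) and lower, by edgeR, with log2 fold changes of -1.08 (adjusted p = 0.0302) at 96 h and -0.92 (adjusted p = 0.00343) at 240 h. The 96 h call of Adrb3 was lost in 11 of 23 alternatives (0.0169 to 0.264) and the 240 h call in 1 (0.0537 without culture 6 in all groups). Cebpa, a transcription factor of fat-cell formation, had values of 0.06 (adjusted p = 0.746) and 0.18 (adjusted p = 0.283). Lpl, the lipase that releases fatty acids from lipoproteins, had values of 0.10 (adjusted p = 0.5) at 96 h and -0.96 (adjusted p = 1.2e-05) at 240 h, with a difference of -1.06 (adjusted p = 0.000454). Me1, the malic enzyme that supplies NADPH for fatty acid synthesis, was at -0.00 (adjusted p = 0.969) at 96 h and rose by 0.25 (adjusted p = 0.000113) at 240 h, while Fasn fell at both times.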
